A study of Mus musculus with 3 samples.

Results

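The genes described here drive or mark the making of fat cells, and they were followed in NIH3T3, an established mouse fibroblast line. They are Zfp423, Cebpb, Cebpd, Pparg, Cebpa, Plin1, Plin2, Fabp4, Lpl and Adipoq. They were picked by gene symbol from the deposited expression table, which lists 55573 genes, and all 10 were found there under 1 gene ID each. The study sequenced 3 UMI-RNAseq libraries of cells given no experimental treatment, called library 1, library 2 and library 3 after their replicate numbers. Before lysis for RNA the cells were treated with trypsin and washed in PBS. Whether this handling changed any level below was not tested. The cells grew in serum-containing DMEM with penicillin and streptomycin, carried no labelled genetic change and received no fat-inducing hormones, and all 3 libraries share this 1 condition, so no group could be compared with another. The molecules are tagged with a unique molecular identifier before PCR, so that copies of 1 molecule can be removed, and the values are FPKM, which are fragments scaled by gene length in kilobases and by the library total in units of 1000000 fragments. Whether they were made from separate cultures is not stated in the sources used here, and the spread between them may be technical only.

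Fat cells arise from fibroblast-like precursors in ordered steps. Commitment factors such as Zfp423 mark the precursor, and a hormone cocktail given to confluent cultures then raises Cebpb and Cebpd, a pair of early transcription factors of the C/EBP family. These switch on Pparg and Cebpa, the core regulators that sustain each other and turn on the genes of the mature fat cell, among them Fabp4, a carrier of fatty acids in the cytosol, Lpl, the lipase that frees fatty acids from lipoproteins, Plin1, a coat protein of large lipid droplets, and Adipoq, the hormone adiponectin. NIH3T3 cells are known as a line that seldom becomes fat cells unless Pparg or a C/EBP factor is supplied, unlike the related preadipocyte line 3T3-L1. The values below ask which of these steps already gave transcripts in NIH3T3 cells without the hormone cocktail.

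The libraries rested on 13959723 to 14423209 fragments after removal of PCR copies, and between 12919 and 12951 genes per library reached 1 FPKM. All 10 fibroblast markers tested had a mean of at least 1 FPKM (median 506 FPKM), with fibronectin (Fn1, 4377 FPKM), a collagen chain (Col1a2, 1542 FPKM) and vimentin (Vim, 1489 FPKM) at the top. The labels' extraction text speaks of retina, so 12 retina markers were examined, and 0 of them reached 1 FPKM. Nrl was listed at 0, the highest was Rom1 at 0.880 FPKM, followed by Rcvrn (0.363 FPKM) and Sag (0.353 FPKM), and the summed level of the list lay between 1.74 and 2.76 FPKM per library. The fragment number behind each FPKM value was recovered from the values, and intervals given below are exact Clopper-Pearson 95% intervals that cover counting error only.

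Of the 10 genes, 5 had a mean of at least 1 FPKM: Plin2, Cebpd, Lpl, Cebpb and Fabp4. Over all genes listed 23.2% reached this level, and over protein-coding genes 49.2% did, so the share of 5 in 10 is about that of any protein-coding genes. The other 5, Plin1, Zfp423, Pparg, Adipoq and Cebpa, had 7 fragments between them in the 3 libraries together. There was no gene between these sets, since the lowest of the upper set, Fabp4, stood at 7.69 FPKM and the highest of the lower set, Plin1, at 0.0641 FPKM. The median of the 10 was 3.88 FPKM, beside a median of 0 FPKM over all genes listed and 0.804 FPKM over protein-coding genes. The shares of 23.2% and 49.2% are also the background for every count of listed genes at 1 FPKM below. No list was tested against this background.

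**Figure D1:**
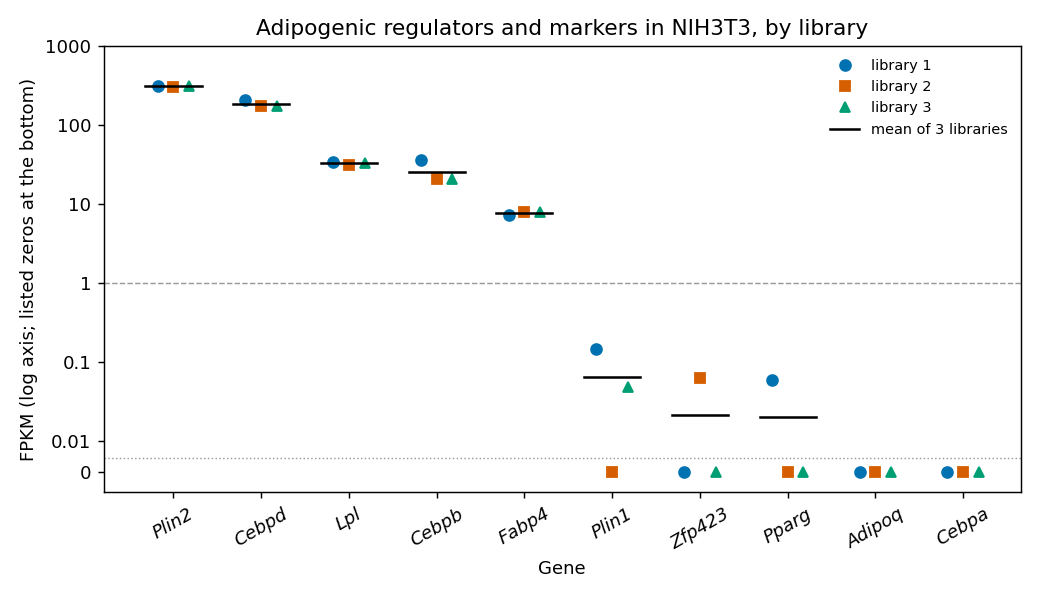
FPKM of the 10 adipogenic genes in each of the 3 libraries (points) with the mean (bar), on a log axis with listed zeros at the bottom and the level of 1 FPKM dashed. Plin2, Cebpd, Lpl, Cebpb and Fabp4 lie between 7.30 and 309.2 FPKM in every library, and the other 5 genes lie at or below 0.144 FPKM.

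Both genes of the early step gave signal, and Cebpd far more than Cebpb. Cebpd (C/EBP delta, chr16:15887286-15891031, plus strand, GRCm38) was at 206.5 FPKM in library 1, 176.0 FPKM in library 2 and 175.7 FPKM in library 3. The mean was 186.1 ± 17.7 FPKM (SD, n = 3), which ranked Cebpd 494 among 21980 protein-coding genes. Cebpb (C/EBP beta, chr2:167688915-167690418, plus strand) was at 35.5 FPKM in library 1, 20.9 FPKM in library 2 and 20.4 FPKM in library 3, with a mean of 25.6 ± 8.56 FPKM (SD, n = 3) and a rank of 4864. Both were highest in library 1, and libraries 2 and 3 lay close together for each gene. Within libraries, the FPKM of Cebpd was 5.82, 8.42 and 8.59 times that of Cebpb.

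For both genes the spread between libraries was larger than counting error gives. The highest library of Cebpb was 1.74 times the lowest, whereas 0.49% of the 8980 genes with at least 500 fragments had a ratio of at least 1.5, and 33 genes (0.367%) had one as large as that of Cebpb. Its coefficient of variation was 33.4%, beside 4.27% from counting alone. The interval of library 1 (33.0 to 38.1 FPKM) did not meet those of library 2 (19.0 to 23.0 FPKM) and library 3 (18.6 to 22.5 FPKM). For Cebpd the ratio was 1.17, which 6.85% of the same genes reached, and its coefficient of variation was 9.50% against 1.34% from counting. Plin2 (1.02), Lpl (1.07) and Fabp4 (1.09) spread less, and their coefficients of variation of 1.08%, 3.51% and 4.58% stood beside 1.63%, 2.86% and 5.97% from counting. Without library 1, the mean of Cebpb was 20.7 FPKM and that of Cebpd 175.9 FPKM, so both stayed well above 1 FPKM.

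**Figure D2:**
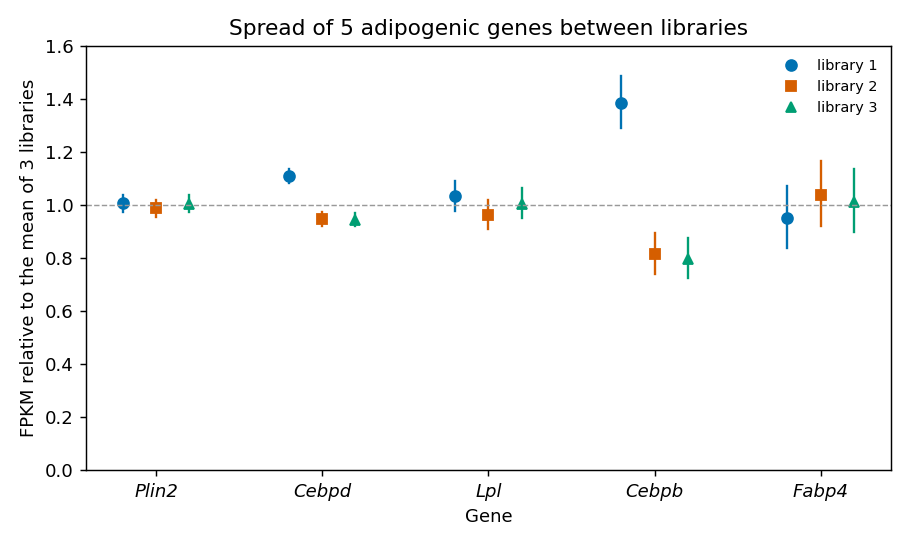
FPKM of the 5 genes with signal in each library, divided by the gene's mean of the 3 libraries (linear axis from 0), with 95% counting intervals as vertical lines. Library 1 stands apart for Cebpb and, less so, for Cebpd, while the 3 intervals of Plin2, Lpl and Fabp4 overlap.

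Both early genes lie over a gene on the opposite strand, and whether counting used the strand is not stated in the sources used here. Cebpb overlaps Tmem189 over 908 nt, and 16.7% of its 75-nt words also occur in that gene's transcripts. Tmem189 stood at 14.7, 14.6 and 15.2 FPKM in libraries 1, 2 and 3, with library 3 highest. Cebpd overlaps Spidr over 1808 nt, shares 13.1% of its words with it, and Spidr stood at 22.0, 21.7 and 22.1 FPKM. Spidr too was highest in library 3. How far these overlaps raised or lowered the Cebpb and Cebpd values, in library 1 or in any other, was not tested.

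Most of the other early factors were also present. Of the 14 early transcription factors listed, 13 (92.9%) had a mean of at least 1 FPKM, beside 49.2% of protein-coding genes. This is 11 of the 12 beside Cebpb and Cebpd, and the list median was 41.1 FPKM. The highest were Klf4 (230.1 ± 4.74 FPKM), Cebpd and Klf6 (130.3 ± 3.66 FPKM), where Klf4 is a zinc finger factor that acts on Cebpb early in fat cell formation (SD, n = 3 in each case). Klf15, a later member of the same family, was the 1 gene of the list below the limit, at 0.874 FPKM. It lay close to the limit, with 1.17 FPKM in library 2. Without library 3, or with each library scaled to a sum of 1000000, all 14 reached 1 FPKM. All 10 genes listed for the signals of the hormone cocktail reached 1 FPKM (100%, beside 49.2% of protein-coding genes), with a median of 34.4 FPKM. They are receptors, kinases, the adaptors Irs1 and Irs2, the phosphodiesterase Pde4d and the transcription factor Creb1. Creb1 and Nr3c1 are also on the list of early factors. Akt1, a kinase downstream of the insulin and IGF1 receptors, was at 219.4 ± 4.0 FPKM, the glucocorticoid receptor Nr3c1 at 76.1 ± 1.33 FPKM and the IGF1 receptor Igf1r at 65.4 ± 1.18 FPKM.

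Of the core regulators, neither was detected above 1 fragment at this depth. Cebpa (C/EBP alpha, chr7:35119293-35121928, plus strand) was listed at 0 FPKM in all 3 libraries. A count of 0 over the 3 libraries allows up to 0.0294 FPKM at 3 fragments, and the interval reaches up to 0.0361 FPKM. Pparg (PPAR gamma, the nuclear receptor that fat cell genes depend on, chr6:115360951-115490399, plus strand) was at 0.0594 FPKM in library 1 and listed at 0 in libraries 2 and 3. That value in library 1 is 1 fragment, so no library differed detectably from another. Over the 3 libraries together the interval for Pparg ran from 0.000508 to 0.112 FPKM. Genes on the opposite strand of Cebpa (Gm45091) and Pparg (Gm44079) were at 0 FPKM in every library.

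Relatives of both core regulators were well expressed. Cebpd was at least 6343-fold and Cebpb at least 875-fold higher than Cebpa, taking the mean isoform lengths and, for Cebpa, the level of 3 fragments over the libraries rather than the upper end of its interval. Of the 6 C/EBP genes, 4 had a mean of at least 1 FPKM (66.7%, beside 49.2% of protein-coding genes). These included Cebpg (75.6 ± 2.48 FPKM) and Ddit3 (104.5 ± 1.20 FPKM), both partners of the other C/EBP proteins and in the case of Ddit3 an inhibitor of their binding. Ddit3 was 4.36 ± 1.26 times and Cebpg 3.16 ± 0.953 times as high as Cebpb (SD over n = 3 libraries). Cebpe, a factor of granulocytes, had 1 fragment in all. In the PPAR family, Ppard, the form found in most tissues, was at 33.0 ± 1.70 FPKM, and Ppara, the form of the liver, was listed at 0. The ratio of Ppard to Pparg was 1646, with a counting interval from 295 to 65038, because Pparg rests on 1 fragment.

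**Figure D3:**
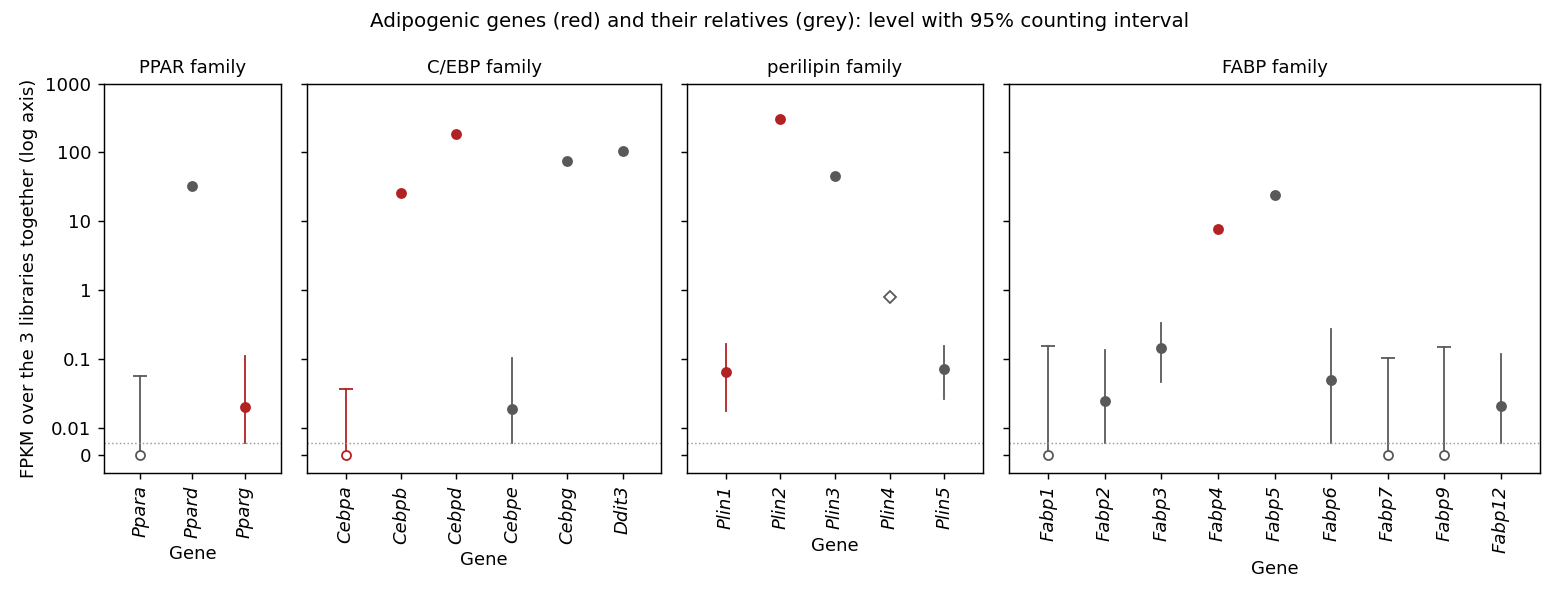
FPKM over the 3 libraries together for the PPAR, C/EBP, perilipin and FABP families on a log axis, with 95% counting intervals as vertical lines, drawn no further down than the dotted line. Red marks the adipogenic genes described here and grey their relatives, open circles are genes listed at 0 with a bar at the upper limit, the open diamond is the mean of Plin4, for which no fragment number was recovered, and each family holds at least 1 gene above 20 FPKM and at least 2 below 1 FPKM.

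The sequences at the start of a C/EBP gene with signal and of one without follow. RefSeq promoter windows (GRCm38.p6, from 250 bases before to 50 after the start) matched 7 of the 10 genes by symbol, with 10 windows in all (not Cebpd, Fabp4 and Lpl). The windows of Cebpb (chr2:167688665-167688964, plus strand) and Cebpa (chr7:35119043-35119342, plus strand) are shown because they belong to relatives at 25.6 FPKM and at 0. Capitals mark the TATA box (TATAAA) and the GC box (GGGCGG), read on both strands.
Cebpb: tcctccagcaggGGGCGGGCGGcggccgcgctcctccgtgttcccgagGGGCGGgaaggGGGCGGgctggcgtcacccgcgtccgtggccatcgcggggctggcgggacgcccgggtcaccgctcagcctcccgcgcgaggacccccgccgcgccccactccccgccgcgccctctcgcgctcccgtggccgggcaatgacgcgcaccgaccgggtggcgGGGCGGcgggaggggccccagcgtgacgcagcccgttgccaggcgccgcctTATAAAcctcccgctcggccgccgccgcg
Cebpa: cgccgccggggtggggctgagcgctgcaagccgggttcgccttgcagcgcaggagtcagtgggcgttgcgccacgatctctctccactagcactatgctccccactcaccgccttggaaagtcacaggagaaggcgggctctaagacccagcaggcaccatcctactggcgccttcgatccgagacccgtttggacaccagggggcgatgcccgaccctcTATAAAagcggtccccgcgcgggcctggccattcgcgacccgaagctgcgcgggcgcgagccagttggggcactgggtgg
Each holds 1 TATAAA, a word found in 13.6% of the 32851 RefSeq windows. The Cebpb window holds 5 matches to the GC box GGGCGG, a pair of which overlap, and the Cebpa window holds none, while 35.7% of all windows hold at least 1. The Cebpb window has 50 CpG and a GC content of 80.7%, and 0.855% of all windows have as many CpG. The Cebpa window has 29 CpG (12.9% of windows have as many) and a GC content of 67.3%, against medians of 7 CpG and 52.7% over all windows. Pparg has 3 windows, with 44, 13 and 2 CpG, so a CpG-rich start is also found at a gene with 1 fragment. The GC box is also found at genes nearly without signal. The Pparg windows hold 1, 2 and 0 matches and the 2 windows of Zfp423 hold 1 and 2, while those of Adipoq and Plin1 hold none. These matches describe letters, and no binding was measured.

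Most genes that work with the core regulators gave signal. Of the 18 genes listed as core regulators and partners, 13 (72.2%) had a mean of at least 1 FPKM, beside 49.2% of protein-coding genes. The list median was 27.0 FPKM. The highest were the corepressor Ncor1 (109.3 ± 2.80 FPKM) and the acetyltransferase Ep300 (69.6 ± 1.54 FPKM). Rxra, with which PPAR gamma pairs on DNA, was at 26.8 ± 1.69 FPKM, and its relative Rxrb at 43.2 FPKM. The ratio of Rxra to Pparg was 1334, with a counting interval from 239 to 52721. The 5 genes below the limit were Pparg, Cebpa, Rxrg (listed at 0), Nr1h3 (0.0950 FPKM), the oxysterol receptor LXR alpha, and the coactivator Ppargc1a (0.602 FPKM).

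Among commitment genes, Zfp423 was not detected above 2 fragments. Zfp423, a zinc finger factor that primes precursors for fat cell formation (chr8:87661810-87959595, minus strand), was at 0.0629 FPKM in library 2 and listed at 0 in libraries 1 and 3. These 2 fragments give an interval of 0.00249 to 0.0743 FPKM over the 3 libraries. Its relative Zfp521, which restrains Zfp423 and fat cell formation, was at 11.01 ± 0.175 FPKM, a ratio of 535 with a counting interval from 148 to 4427. Ebf1, a factor of the precursor that cooperates in fat cell formation, was at 22.3 ± 0.815 FPKM, a ratio to Zfp423 of 1084 with an interval from 299.8 to 8957. Its relative Ebf2, linked to brown fat precursors, was at 0.202 FPKM.

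Some surface markers of fat cell precursors were among the more abundant transcripts. Of the 15 commitment factors and progenitor markers, 10 (66.7%) had a mean of at least 1 FPKM, beside 49.2% of protein-coding genes. The list median was 10.2 FPKM. The highest were the surface proteins Cd34 (352.6 ± 1.16 FPKM), Pdgfra (146.7 ± 2.06 FPKM) and Ly6a (82.6 ± 5.56 FPKM), which are used to isolate precursors from fat tissue. Pdgfrb, a surface protein on the same list, was lower at 31.6 FPKM, with a rank of 4165 among protein-coding genes. The 5 below the limit were Zfp423, Ebf2, the ligands Bmp4 and Bmp2 with 1 fragment each, and Prdm16, a factor of brown and beige fat, which was listed at 0.

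Inhibitors of fat cell formation were expressed nearly throughout. Of 18 listed, 17 (94.4%) had a mean of at least 1 FPKM, beside 49.2% of protein-coding genes. The list median was 38.7 FPKM. The highest were Ctnnb1 (beta-catenin, the effector of canonical Wnt signals, 321.7 ± 4.48 FPKM), Smad3 (a transducer of TGF-beta, 112.1 ± 1.52 FPKM) and Ddit3. Dlk1 (Pref-1), a membrane protein of preadipocytes that is lost as they mature, was at 60.8 ± 1.71 FPKM, and its ratio to Pparg was 3033 with a counting interval from 544 to 119805. Wnt10b, a Wnt ligand that holds preadipocytes back, was the 1 gene below the limit, at 0.914 FPKM. It too lay close to the limit, with 1.21 FPKM in library 1. Without library 3, or with each library scaled to a sum of 1000000, all 18 reached 1 FPKM.

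Of the lipid droplet proteins, Plin2 was abundant and Plin1 nearly without signal. Plin2 (adipophilin, which coats small droplets in many cell types, chr4:86648386-86670060, minus strand) was at 309.2, 303.3 and 309.0 FPKM in libraries 1, 2 and 3. Its mean of 307.2 ± 3.32 FPKM (SD, n = 3) was the highest of the 10 genes and ranked 267 among protein-coding genes, with values divided by the mean isoform length; with the shortest isoform, or without division by length, Cebpd was higher. Plin1 (perilipin 1, the droplet coat of fat cells, chr7:79720218-79732903, minus strand) was at 0.144 FPKM in library 1, listed at 0 in library 2 and at 0.0484 FPKM in library 3. These values stand for 3, 0 and 1 fragments, and the interval over the 3 libraries ran from 0.0177 to 0.166 FPKM. The ratio of Plin2 to Plin1 was 4735, with a counting interval from 1849 to 17380.

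Plin3, the other broadly expressed perilipin, was at 45.9 ± 2.31 FPKM, and Plin2 was 6.70 ± 0.395 times as high within libraries (SD, n = 3). Plin4, a perilipin of fat and muscle, was at 0.802 ± 0.0487 FPKM. Plin5, the perilipin of tissues that burn fat, had 6 fragments in all (0.0705 FPKM). So 2 of the 5 perilipins (40.0%, beside 49.2% of protein-coding genes) reached 1 FPKM, and they are those known from many cell types. With each library scaled to a sum of 1000000, Plin4 passed this limit as well.

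The windows of Plin2 (chr4:86670010-86670309, minus strand) and Plin1 (chr7:79732727-79733026, minus strand) are printed 5′ to 3′ on the gene's strand, since these paralogs were at 307.2 and 0.0641 FPKM. Capitals mark the CCAAT box, the GC box, the E-box (CACGTG), a word bound by nuclear receptors (AGGTCA) and a C/EBP word (TTGCNNAA), each searched on both strands.
Plin2: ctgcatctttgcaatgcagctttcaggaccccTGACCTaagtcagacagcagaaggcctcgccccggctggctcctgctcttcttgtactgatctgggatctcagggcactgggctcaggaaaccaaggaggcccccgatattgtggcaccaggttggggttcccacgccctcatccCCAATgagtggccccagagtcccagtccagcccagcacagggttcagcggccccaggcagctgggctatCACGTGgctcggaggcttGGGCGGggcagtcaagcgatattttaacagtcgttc
Plin1: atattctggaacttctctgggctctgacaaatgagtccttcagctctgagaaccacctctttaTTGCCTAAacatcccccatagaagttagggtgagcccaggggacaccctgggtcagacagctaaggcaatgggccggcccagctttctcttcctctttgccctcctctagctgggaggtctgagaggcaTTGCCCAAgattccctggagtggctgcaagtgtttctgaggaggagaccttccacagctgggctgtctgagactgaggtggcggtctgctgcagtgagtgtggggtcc
The Plin2 window holds 1 CCAAT box (in 37.4% of all windows), 1 GC box, 1 E-box (7.15% of windows) and 1 nuclear receptor word, here in its reverse complement (16.3% of windows). The Plin1 window holds none of these and 2 matches to the C/EBP word, which 10.8% of windows hold. The Plin2 window has 10 CpG and that of Plin1 has 2, numbers that 43.5% and 85.9% of all windows reach.

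Among markers of the mature fat cell, Lpl and Fabp4 gave signal and Adipoq did not. Lpl (chr8:68880491-68907448, plus strand) was at 33.6, 31.3 and 32.7 FPKM in libraries 1, 2 and 3, with a mean of 32.5 ± 1.14 FPKM (SD, n = 3) and a rank of 4084. Fabp4 (chr3:10204088-10208576, minus strand) was at 7.30, 7.99 and 7.77 FPKM, with a mean of 7.69 ± 0.352 FPKM (SD, n = 3) and a rank of 8409. Library 1 was the highest for Lpl and the lowest for Fabp4, and the counting intervals of the 3 libraries overlapped for each. Adipoq (chr16:23146536-23158028, plus strand) was listed at 0 in every library. This allows up to 0.0767 FPKM at 3 fragments over the libraries, and the interval reaches up to 0.0943 FPKM. At the mean isoform lengths, Fabp4 was at least 100.15-fold and Lpl at least 424-fold higher than Adipoq. These folds take Adipoq at the level of 3 fragments rather than the upper end of its interval.

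The rest of the mature markers followed Adipoq more than Fabp4. Of 21 listed, 5 (23.8%) had a mean of at least 1 FPKM, beside 49.2% of protein-coding genes. Of the 17 that are not among the 10 genes, 3 did. The list median was 0.0260 FPKM, and 15 of the 21 had fewer than 5 fragments in all. The 3 others above the limit were Acsl1 (24.9 ± 1.07 FPKM), which activates fatty acids, Dgat2 (15.1 ± 0.289 FPKM), which makes triglyceride, and Lipe (2.51 ± 0.212 FPKM), the hormone-sensitive lipase. Listed at 0 beside Adipoq were the droplet proteins Cidea and Cidec, the lipase inhibitor G0s2 and the hormone leptin (Lep). By contrast, 13 of 14 genes of lipid synthesis and lipolysis that many cell types use had a mean of at least 1 FPKM, with a median of 34.2 FPKM. They are enzymes except for Bscl2 (seipin, an ER protein) and Abhd5, a coactivator of the lipase Pnpla2. The highest were the desaturase Scd2 (96.5 ± 0.519 FPKM), the citrate lyase Acly (69.5 ± 0.737 FPKM) and the desaturase Scd1 (69.1 ± 1.92 FPKM), and the 1 below the limit was the monoglyceride lipase Mgll, with 3 fragments in all.

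Fabp4 did not have the highest transcript level of the listed fatty acid binding protein genes. Fabp5, the epidermal form that is also found in fat cells and macrophages, was at 24.2 ± 0.382 FPKM and was 3.30, 2.99 and 3.17 times as high as Fabp4 in libraries 1, 2 and 3. Of the 9 genes listed for the family, these 2 reached 1 FPKM (22.2%, beside 49.2% of protein-coding genes). Fabp3, the heart form, had 5 fragments (0.141 FPKM), and 26.0% of its 75-nt words also occur in other genes, among them a pseudogene, so its value is uncertain. Fabp2, Fabp6 and Fabp12 had 1 fragment each, and Fabp1, Fabp7 and Fabp9 were listed at 0. The value of Fabp9 is uncertain as well, since 41.8% of its words also occur in the gene Gm37389.

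Of the LPL family and its helpers, 4 of 9 had a mean of at least 1 FPKM (44.4%, close to the 49.2% of protein-coding genes). Beside Lpl these were Lmf1 (9.83 ± 0.711 FPKM), which LPL needs to fold, the LPL inhibitor Angptl4 (7.96 ± 0.411 FPKM) and Angptl8 (1.52 ± 0.425 FPKM). Gpihbp1, which carries LPL across the capillary wall, and the cofactor Apoc2 were listed at 0. The endothelial lipase Lipg was below the limit at 0.749 FPKM, and Lpl was 45.1 ± 10.0 times as high within libraries (SD, n = 3).

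Lpl and Fabp4 are also transcribed in macrophages, and Fabp4 in capillary endothelium, so markers of both were examined. Of 10 macrophage markers, 3 had a mean of at least 1 FPKM, namely Cd14 (17.8 FPKM), Lyz2 (2.54 FPKM) and Cd68 (2.12 FPKM). The defining markers Adgre1 and Itgam were listed at 0, Ptprc had 3 fragments, and the summed level of the list was 22.4 to 23.9 FPKM per library. Of 10 endothelial markers, 2 reached 1 FPKM, Vwf (1.64 FPKM) and Cdh5 (1.35 FPKM), followed by Esam (0.248 FPKM). Pecam1 was at 0.0662 FPKM, Cldn5 and Emcn were listed at 0, and the summed level was 2.99 to 3.64 FPKM. In bulk RNA, a few cells with much of a transcript and many cells with little cannot be told apart.

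Markers of brown fat gave the least signal of these lists, with 0 of 8 at a mean of at least 1 FPKM. The 2 genes with any fragments were the coactivator Ppargc1a (0.602 FPKM) and the deiodinase Dio2 (0.318 FPKM). The uncoupling protein Ucp1, which defines brown fat cells, was listed at 0, as were Cidea, Cox8b, Elovl3, Prdm16 and Zic1.

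In the order of levels at the mean isoform length, Plin2 came first, followed by Cebpd, Lpl, Cebpb, Fabp4 and Plin1. Between neighbours, values were compared within each library as a difference of log2(FPKM + 0.1). Plin2 stood 0.73 ± 0.13 above Cebpd, Cebpd 2.51 ± 0.10 above Lpl, Cebpb 1.68 ± 0.51 above Fabp4 and Fabp4 5.66 ± 0.71 above Plin1 (SD, n = 3). In these 4 of 6 pairs, every library of the higher gene lay above every library of the lower one. The size of the step from Fabp4 to Plin1 rests on the added 0.1, since Plin1 had 3, 0 and 1 fragments. It was 3.03 with 1 added to the FPKM instead and 7.42 with 0.01 added. Lpl and Cebpb did not differ beyond their spread: the mean difference was 0.39 ± 0.41, and in library 1 Cebpb was above Lpl. Plin1 and Zfp423 overlapped as well (0.38 ± 1.01), and Zfp423, Pparg, Adipoq and Cebpa, each with at most 2 fragments, were given no order. By the exact two-sided sign-flip permutation test over libraries, p was 0.25 for the 4 separate pairs (0.375 after Benjamini-Hochberg adjustment over 6 pairs). By the same test p was 0.5 (adjusted 0.6) for Lpl and Cebpb and 0.75 (adjusted 0.75) for Plin1 and Zfp423. With 3 libraries no p below 0.25 can arise, so a p under 0.05 was out of reach. The pairs and their direction were also taken from the means of these same libraries, so the test cannot decide whether the order holds.

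Levels of genes with isoforms of unlike length depend on the length that the values are divided by. The deposited values matched division by the mean isoform length, which was 2088 nt for Cebpd (isoforms of 430 to 3746 nt), 861 nt for Plin2 (551 to 1888 nt), 2564 nt for Fabp4 (896 to 4231 nt) and 2649 nt for Lpl (851 to 4115 nt). With the shortest isoform, Cebpd would be at 903.5 FPKM and Plin2 at 480.0 FPKM, so the order of these 2 genes turned. Cebpb has 1 isoform of 1504 nt, and its level does not depend on this choice.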

How the data were processed

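The data are 3 UMI-RNAseq libraries of NIH3T3 cells given no experimental treatment beside trypsin at harvest, which form 1 group. Per the labels' processing notes and the study's methods, the authors identified UMIs with UMI-tools (1.0.0), mapped reads with HISAT2 (2.0.4), removed PCR copies and counted reads per gene with HTSeq (0.6.1). The genome build and annotation of the counting are not given in the sources used here. The authors deposited FPKM per library in a pair of tables with identical values for 55573 genes, of which 55480 gene IDs were found in GENCODE M21 (GRCm38). No count model was fitted.

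With Python 3.11.15, numpy 2.4.6, pandas 2.3.3 and scipy 1.17.1, library totals (13959723 to 14423209 fragments) and the fragments of each gene were recovered from FPKM and the mean isoform length, a step tested on simulated data. Of 26193 genes with at least 1 fragment, 99.2% gave whole numbers within 0.02. The level of 3 fragments over the libraries was used for genes at 0. Shared sequence was the percentage of 75-nt words that also occur in another gene's transcripts. Figures were drawn with matplotlib 3.10.9.

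The genes and lists were chosen with earlier results of these data known. Named were the 10 genes, family genes above 0 in a library, the top 3 genes of every other list and mature markers of at least 1 FPKM, except for some items that are not reported here. Other listed genes and overlapping genes were named for their role or as exceptions in a list after their values were seen. Ddit3 is listed under 2 gene IDs, and the one with more isoforms was used. Alternatives were leaving out each library, scaling each library to a sum of 1000000 (TPM) or by median of ratios, the longest isoform, no division by length, pseudocounts of 1 and 0.01 and limits of 0.1 and 5 FPKM. The shortest isoform was added after the data were examined.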

Additional observations from a re-analysis of the deposited data

How the results depend on the processing

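No paired analysis was possible because all libraries belong to the same group. Of 112 counts of genes at or above a limit recomputed under the alternatives, 111 stayed within 1.5 times the reported count. The exception was the brown fat list, for which 2 genes (Ppargc1a and Dio2) passed a limit of 0.1 FPKM and 0 passed 1 FPKM. For short lists a span of 1.5 times still lets the count change. Scaling each library to a sum of 1000000 gave 3 perilipins instead of 2 and 5 genes of the LPL list instead of 4. Of 60 recomputed differences between neighbours in the order of levels, 56 kept their sign. Plin2 over Cebpd turned to -0.91 (log2) with the shortest isoform and to -0.55 with fragments scaled to the library total but not divided by gene length. Lpl over Cebpb turned to -0.24 with the longest isoform. Leaving out 1 library at a time gave Plin1 over Zfp423 from -0.067 (without library 1) to 0.93, a pair that rests on 4 and 2 fragments. Of 80 recomputed mean FPKM values of the 10 genes, 64 moved by at most 1 SD. The other 16 moved by more, all under rescaling or another isoform length. The 64 include every value of Cebpa and Adipoq, which were 0 throughout and could not move. For Pparg, Plin1 and Zfp423 the SD was larger than the mean, so a fall to 0 would not count as a move. Fabp4 ran from 4.66 FPKM (longest isoform) to 22.0 FPKM (shortest), Lpl from 20.9 to 101.3 FPKM, Cebpd from 103.7 to 903.5 FPKM and Plin2 from 140.1 to 480.0 FPKM. Depth limits Pparg, Cebpa, Adipoq, Zfp423 and Plin1, for which no level below that of about 3 fragments over the libraries can be told from 0.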

Other observations

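Among the 87 listed genes with at least 500 fragments, the highest library was at least 1.1 times the lowest for 18 and at least 1.5 times for 1, which was Cebpb. The median ratio was 1.05 over these genes and 1.06 over all 8980 genes with as many fragments, of which 2313 reached 1.1 and 44 reached 1.5. After Cebpb, the next was Klf2, an inhibitor of fat cell formation, with 48.0, 40.2 and 39.2 FPKM in libraries 1, 2 and 3 and a ratio of 1.23. Tcf7l1 followed with a ratio of 1.21, and Cebpd came after it with 1.17. For Cebpb, Cebpd and Klf2, library 1 was the highest and library 3 the lowest. For Tcf7l1, library 2 was the highest and library 3 the lowest. These genes were singled out after their values were seen, and no test between libraries of 1 group was made.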
